A study of Homo sapiens with 6 samples.

Results

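The genes described here encode the subunits of the proteasome, its activators, its regulator PSMF1 and its assembly chaperones. They were measured on arrays in HCT116 cells, a long-cultured line from a human colon cancer, after sorting by CD133, a membrane protein often used to mark stem-like tumour cells. The groups were CD133+ and CD133- cells, with 3 arrays each numbered as repetitions 1, 2 and 3. Both groups are sorted portions of the same cell line, so they share its genotype, and the labels name no drug, transgene or time point. All results therefore describe 1 cell line. Members were the probe sets with a single gene symbol starting with PSMA, PSMB, PSMC, PSMD, PSME, PSMF or PSMG. The inducible catalytic genes PSMB8, PSMB9 and PSMB10 and pseudogenes were left out, and where a gene had more than 1 probe set the one with the highest mean was kept. This gave 44 of the 18404 genes with a probe set of their own. PSMC3IP and PSME3IP1 matched by their letters alone, as partners of a proteasome protein or gene product, and were kept out of all counts below. The remaining 42 genes were 8 alpha ring, 8 beta ring, 5 ATPase, 3 other base and 6 lid subunits, 4 activators, PSMF1, 4 chaperones of the core particle (PSMG1 to PSMG4) and 3 chaperones of the base (PSMD5, PSMD9 and PSMD10). PSMC5, PSMD7 and PSMD13 were not analysed here.

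The proteasome is the protease that degrades proteins tagged with ubiquitin. Its core particle is a barrel of stacked rings, with outer alpha rings that gate the entry and inner beta rings that carry the active sites. A regulatory particle sits on the barrel. Its base holds a ring of ATPases that unfold the substrate, and its lid removes the ubiquitin chain. Proteasome genes are expressed in nearly all cells, and in many cell types their transcripts are raised together by the transcription factor NFE2L1 when proteasome capacity falls short.

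All signals are log2 values, so a difference of 1 is a doubling. The 6 arrays had medians of 5.44 to 5.6 over the 28230 probe sets tested. They were lowest in repetition 2, at 5.46 in CD133+ and 5.44 in CD133-, and highest in repetition 3, at 5.6 and 5.59. PROM1, which encodes CD133, checked the labels: it measured 7.59, 7.36 and 7.09 in CD133+ repetitions 1, 2 and 3 and 5.30, 4.46 and 3.97 in the CD133- repetitions. Its difference of 2.77 had a limma adjusted p of 0.142 without the repetition as a block and 0.0120 with it. The epithelial markers EPCAM, KRT8, KRT18 and KRT19 lay at 10.7 or above in every array. Of the other epithelial markers, CDH1 averaged 8.65 in CD133+ and 8.24 in CD133- cells, CDX2 7.07 and 7.02, and VIL1 4.47 and 4.59. The leukocyte gene PTPRC had 2.44 and 2.33. Whether the marker probe sets measure their own gene rather than a near-identical copy was not checked. Of the markers of other cell types, 1 of 5 leukocyte and 1 of 5 fibroblast genes had a higher mean in CD133+ cells, against 47.9% of all genes. In the comparison of the fractions with limma, 0 of these 10 passed, with or without the block. Labels do not say whether repetitions were separate cultures or sorts, so p-values cover only the spread between these arrays, which may be technical. In a mixed population, fewer cells of a kind and less RNA per cell cannot be told apart.

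No proteasome gene passed the test between the CD133+ and CD133- fractions. Of the 42 genes, 27 had a higher and 15 a lower mean in CD133+ cells, with a median difference (CD133+ minus CD133-) of 0.031 on the log2 scale. Over all genes the median was -0.0064, and 47.9% were above 0. Over the 3355 genes with a mean signal above 8 it was 0.0197, and 56.8% were above 0. With limma and group as the only term, 0 of the 42 passed an adjusted p of 0.05. Of all genes 0.00543% and of all probe sets 0.00354% were called. An unadjusted p under 0.05 was reached by 0 of the 42, 639 of all 18404 genes and 122 of the 3355 with a mean above 8. With the repetition number as a block, again 0 of 42 passed, against 0.369% of all genes and 0.298% of all probe sets. With that block, 2 of the 42 had an unadjusted p under 0.05. So did 2141 of all 18404 genes and 450 of the 3355 with a mean above 8. In no gene of the 42 did the 3 CD133+ arrays lie entirely apart from the 3 CD133- arrays. They did so in 7.95% of all genes and in 271 of the 3355 with a mean signal above 8. This count ignores the pairing by repetition, so genes that differ widely between repetitions, as most members did, can overlap despite a difference within each pair. The 95% intervals of the blocked differences ran between -0.65 and 0.53 over all 42 genes, and between -0.36 and 0.53 without PSMA8 and PSMB11, so differences within those bounds could be missed here. All 16 alternatives also gave 0 calls among the members. In the fit without the block, the sign of the median changed with single arrays. It was -0.072 without CD133+ repetition 2 and -0.090 without CD133- repetition 3, with 9 and 7 genes above 0. It was 0.16 and 0.14 without CD133- repetition 2 and CD133+ repetition 3. Leaving out 1 array of a pair lets differences between repetitions enter these values. With the block and 1 whole repetition left out, the median stayed between 0.0089 and 0.056, with 26 to 30 genes above 0. Taken repetition by repetition, CD133+ exceeded CD133- by a median of 0.0048 in the first pair, 0.024 in the second and 0.12 in the third, with 22, 24 and 32 of the genes above 0.

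**Figure D1:**
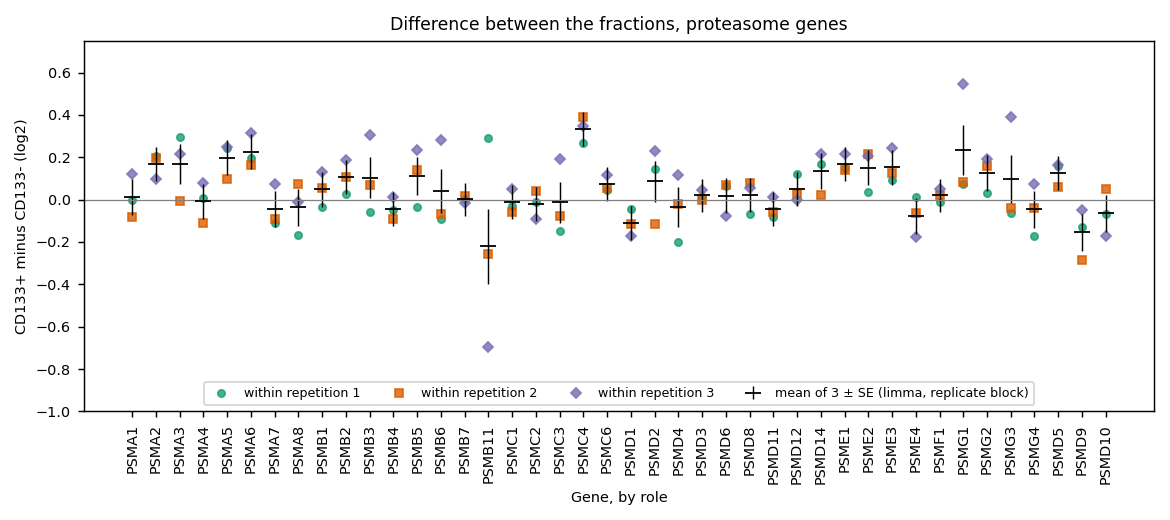
Difference between CD133+ and CD133- cells (log2) for each of the 42 genes, ordered by role; coloured points are the differences within repetitions 1, 2 and 3, and the black bar is their mean ± SE from the limma fit with the replicate block. Most means lie within 0.2 of 0, PSMC4 is highest at 0.34, and the 3 points of PSMB11 spread from 0.29 to -0.70.

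The largest difference belonged to PSMC4, an ATPase of the base. Its probe set (8028756) measured 8.98, 9.17 and 8.69 in CD133+ repetitions 1, 2 and 3 and 8.71, 8.79 and 8.34 in the matching CD133- arrays. CD133+ was the higher array in each repetition, although the ranges of the fractions overlapped. The means were 8.95 ± 0.24 and 8.61 ± 0.24 (SD, n = 3 each), a difference of 0.34 with a limma SE of 0.17. By limma the adjusted p was 1.00 without the block and 0.206 with it. The other ATPases had differences between -0.021 for PSMC2 and 0.073 for PSMC6.

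Among alpha ring genes, 5 of 8 had a higher mean in CD133+ cells. PSMA6 measured 9.60, 9.72 and 9.36 in CD133+ and 9.40, 9.56 and 9.04 in CD133- repetitions, a difference of 0.23 (SE 0.16, adjusted p = 1.00 with limma, 0.386 with the block). PSMA5 had a difference of 0.20, and PSMA2 and PSMA3 each had 0.17. PSMA1, PSMA4 and PSMA7 lay within 0.05 of 0. In 13 of the 42 genes all 3 within-repetition differences were above 0, and PSMA2, PSMA5 and PSMA6 were the alpha ring genes among them. The same held for 17.7% of all genes and for 888 of the 3355 genes with a mean signal above 8.

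Of the catalytic beta subunits, PSMB5, which carries the chymotrypsin-like site, measured 8.89, 9.39 and 8.97 in CD133+ and 8.93, 9.25 and 8.74 in CD133- repetitions, a difference of 0.11 (95% interval with the block -0.10 to 0.33). PSMB6, the caspase-like subunit, had a difference of 0.040 (-0.21 to 0.29), and PSMB7, the trypsin-like subunit, had 0.0016 (-0.19 to 0.19). PSMB11 is the catalytic subunit of the thymus and PSMA8 an alpha subunit of the testis, and both were dim. PSMA8 had a signal of 2.33 to 2.53 over the 6 arrays, in the lowest 8.69% of probe sets. PSMB11 had 4.0 to 4.7, and its difference of -0.22 came with opposite signs in repetitions 1 and 3.

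Among the non-ATPase subunits of the base, PSMD1, the largest scaffold subunit, had a difference of -0.11 with CD133+ lower in each repetition, and PSMD2, its scaffold partner, had 0.086. PSMD4, a receptor of ubiquitin chains, had -0.034. Lid genes had a higher mean in CD133+ cells in 5 of 6 cases, with values from -0.043 for PSMD11 to 0.13 for PSMD14, the deubiquitinase of the lid. Of the assembly chaperones, PSMG1 had 0.24 and its dimer partner PSMG2 had 0.13, both above 0 in each repetition. PSMG1 measured 8.29, 8.86 and 8.32 in CD133+ and 8.21, 8.78 and 7.77 in CD133- repetitions. Without CD133- repetition 3 its difference was -0.0063, and with the block and 1 whole repetition left out it was 0.079 to 0.31. The base chaperones PSMD9, PSMD10 and PSMD5 had -0.15, -0.065 and 0.13. None of these differences passed in either fit.

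The members differed more between repetitions than between fractions, with repetition 2 high and repetition 3 low. The array medians over all tested probe sets ran the other way, lowest in repetition 2 and highest in repetition 3. Their part in the pattern of the members was not tested. A median of 92.0% of a member's variance lay between repetitions and 3.32% between fractions. The medians were 67.8% and 8.21% over all genes, and 83% and 6.1% over genes with a mean signal above 8. In 36 of 42 genes the mean of the 2 arrays was highest in repetition 2 and lowest in repetition 3, a pattern that 24.0% of all genes and 50.1% of the 3355 genes with a mean signal above 8 showed. The median over the members of a repetition's mean against the other repetitions was -0.0036 in repetition 1, 0.37 in repetition 2 and -0.37 in repetition 3. Over all genes it was -0.013, -0.027 and 0.032, and over genes with a mean above 8 it was -0.01, 0.184 and -0.175. With the arrays quantile normalized again, the members had 0.25 in repetition 2 and -0.26 in repetition 3. With the arrays centred on their medians, they had 0.48 and -0.48. In the deposited values, the members' median difference between repetitions 2 and 3 was 0.47, or 1.38-fold. It was -0.043 over all genes and 0.24 over genes with a mean above 8. The pattern stood in each fraction taken alone: 30 of the 42 genes had that order among the CD133+ arrays and 36 among the CD133- arrays, against 22.5% and 24.6% of all genes and 44.6% and 49.4% of those with a mean above 8. Both arrays of repetition 2 lay above the other 4 in 35 of the 42 genes, against 20.5% of all genes and 46.0% of those with a mean above 8. Both arrays of repetition 3 lay below the other 4 in 26, against 16.0% and 36.0%, and 24 genes met both conditions, against 9.26% and 24.9%.

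**Figure D2:**
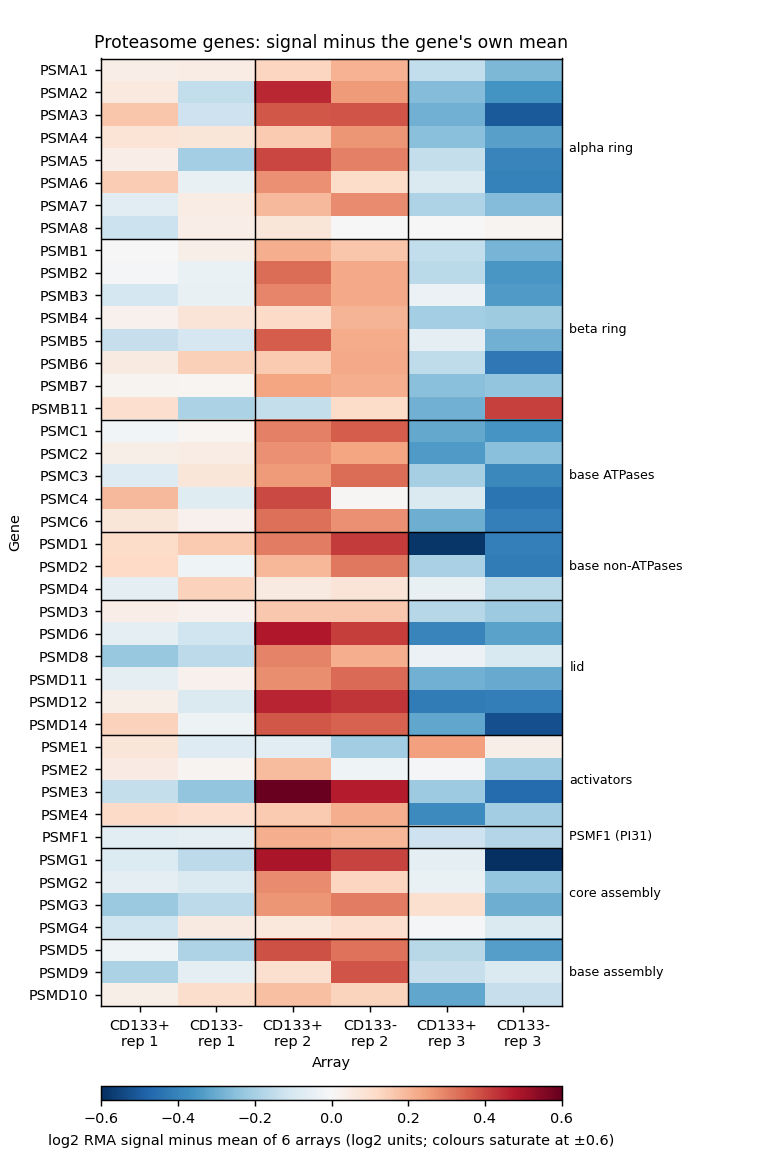
Signal of the 42 genes (rows, by role) in the 6 arrays (columns, by repetition), as the log2 signal minus the gene's mean over the 6 arrays, with colours saturating at 0.6 either way. The repetition 2 columns are red and the repetition 3 columns blue for most rows, and PSME1 runs the other way.

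An F test of the repetition terms, in a limma fit that also held the fraction, passed for 18 of the 42 genes (adjusted p = 0.0167 to 0.0496). Of all genes, 15.3% passed, and of those with a mean above 8, 27.9% passed. The F test gave an unadjusted p under 0.05 for 36 of the 42. It did so for 7064 of all 18404 genes and 1904 of the 3355 with a mean above 8. All 18 called members were highest in repetition 2 and lowest in repetition 3. So were 1463 of the 2817 genes called among all genes. Of the 936 called genes with a mean above 8, 612 had that order. The number called depended on the setting and ran from 0 to 36 members. It was 7 when the arrays were quantile normalized again and 35 when each was centred on its median. It was 36 when only probe sets above the median signal were tested, 36 with a variance trend, and 0 when the leading unannotated rows were kept. It was also 0 without CD133- repetition 2, CD133+ repetition 3 or CD133- repetition 3, each of which leaves a repetition with 1 array, and 1, 9 and 12 without CD133+ repetition 2, CD133+ repetition 1 and CD133- repetition 1.

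Markers of cell types were read over the repetitions as well. The fibroblast gene COL1A1 passed the F test with -0.79 for repetition 2 minus repetition 3 (adjusted p = 0.0147), the leukocyte gene CD14 with -0.51 (0.0438) and the epithelial gene CDH1 with -0.77 (0.0336). All 3 were lowest in repetition 2, where most proteasome genes were highest. In the lists, 0 of 5 fibroblast, 1 of 5 leukocyte and 3 of 7 epithelial genes were higher in repetition 2 than in repetition 3, against 44.6% of all genes. In each list 1 gene passed, against 15.3% of all genes. The median signal per array ran from 5.28 to 5.63 for the fibroblast list, although COL1A1 itself lay at 6.84 to 7.96. It ran from 3.72 to 4.15 for the leukocyte list. The part of these genes in the result was not tested.

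Base ATPases passed the F test over the repetitions in 4 of 5 cases, PSMC1 among them, with a median of 0.59 for repetition 2 minus repetition 3. Beside the counts by role here and below, 15.3% of all genes and 27.9% of those with a mean above 8 passed. PSMC6 (7974380) measured 8.89 and 8.85 in the CD133+ and CD133- arrays of repetition 1, 9.15 and 9.10 in repetition 2 and 8.53 and 8.41 in repetition 3. The repetitions did not overlap, and the difference between repetitions 2 and 3 was 0.66 (SE 0.097, limma adjusted p = 0.0243). A second PSMC6 probe set, whose neighbours by identifier lie on chromosome 8 rather than the gene's chromosome 14, gave 0.84. PSMC1 had 0.66 on its single probe set, but all 20 neighbours of that probe set by identifier lie on chromosome 3 and not on the gene's chromosome 14, so its value may come from a near-identical copy and is uncertain. PSMC2 and PSMC3 had 0.55 and 0.59, and PSMC4 missed the threshold at 0.46 (adjusted p = 0.0538).

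The base scaffold PSMD1 had one of the widest spans. It measured 10.07 and 10.12 in the CD133+ and CD133- arrays of repetition 1, 10.27 and 10.38 in repetition 2 and 9.38 and 9.55 in repetition 3. Repetition 3 was the low one, and repetition 2 exceeded it by 0.86 (SE 0.099), or 1.82-fold (adjusted p = 0.0172). PSMD2 had 0.57 and was not called (0.0538), and the ubiquitin receptor PSMD4 had 0.17 (0.481).

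Lid genes passed in 4 of 6 cases with a median of 0.69. PSMD12, a scaffold subunit of the lid, measured 9.51 and 9.39 in repetition 1, 9.93 and 9.90 in repetition 2 and 9.06 and 9.06 in repetition 3, CD133+ first. The arrays of a repetition differed by at most 0.12 and the repetitions by up to 0.86 (SE 0.099, adjusted p = 0.0176). PSMD6, another scaffold subunit, had 0.81, the deubiquitinase PSMD14 had 0.78 and PSMD11 had 0.60. PSMD8 at 0.32 and PSMD3 at 0.36 missed the threshold.

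In the core particle, the alpha ring passed in 4 of 8 cases and the beta ring in 1 of 8. The medians of repetition 2 minus repetition 3 were 0.48 and 0.46. PSMA3 measured 9.87 and 9.58 in repetition 1, 10.08 and 10.09 in repetition 2 and 9.42 and 9.20 in repetition 3, CD133+ first, a difference of 0.77 between repetitions 2 and 3 (SE 0.11, adjusted p = 0.0243). PSMA2, PSMA5 and PSMA4 passed with 0.67, 0.62 and 0.50. PSMB2, a beta ring subunit without an active site, passed with 0.54 (adjusted p = 0.0411). The catalytic genes PSMB5, PSMB6 and PSMB7 had 0.47, 0.48 and 0.47, with adjusted p values of 0.0578, 0.0791 and 0.0505. Repetition 2 was above repetition 3 in 7 of 8 beta ring genes, the exception being the dim PSMB11 at -0.079. The share called in one ring against the other was not tested.

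**Figure D3:**
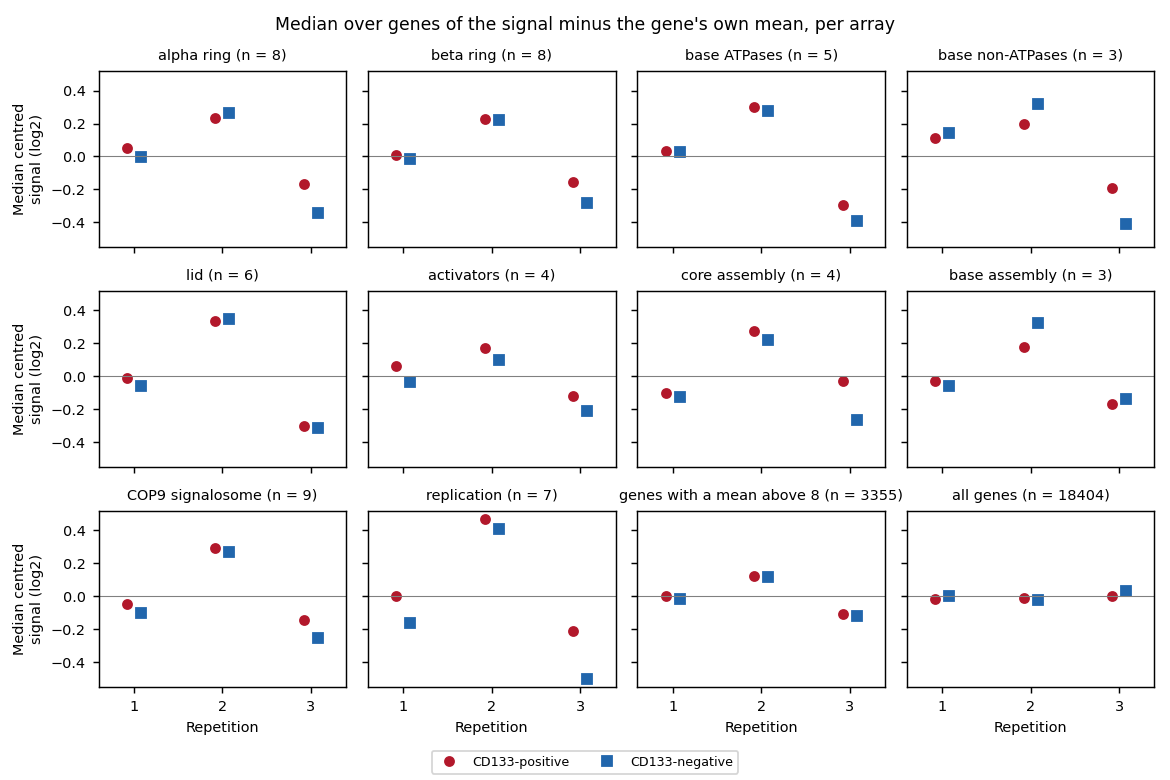
Median over the genes of each set of the signal minus the gene's own mean (log2), per array, by repetition on the horizontal axis, with circles for CD133+ and squares for CD133-. All proteasome roles, the COP9 signalosome and the replication genes are highest in repetition 2, and repetition 3 is lowest except for the CD133+ array of the core assembly genes. Genes with a mean above 8 follow with a smaller span, and the median of all genes stays within 0.03 of 0.

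Assembly chaperones followed with fewer calls. PSMG1 passed with 0.77 (SE 0.14, adjusted p = 0.0369) and the base chaperone PSMD5 with 0.60 (adjusted p = 0.0276). PSMG2, PSMG3, PSMD9 and PSMD10 had 0.34, 0.39, 0.35 and 0.38 and did not pass, and PSMG4, the dimmest chaperone with a mean signal of 6.14, had 0.13. PSMF1, which binds the ends of the core particle, had 0.36 (adjusted p = 0.0901).

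Of the activators, 2 of 4 passed. PSME3, the nuclear activator, had the widest span of all 42 genes. It measured 9.46 and 9.36 in the CD133+ and CD133- arrays of repetition 1, 10.19 and 10.07 in repetition 2 and 9.38 and 9.14 in repetition 3. Repetition 2 was the high one, by 0.72 from repetition 1 and by 0.87, or 1.83-fold, from repetition 3 (SE 0.10, adjusted p = 0.0167). PSME4, the large single-chain activator, passed with 0.48 (adjusted p = 0.0478), with repetition 3 lowest and repetitions 1 and 2 only 0.081 apart. PSME1 and PSME2 form the cytosolic activator that interferon induces. PSME1 measured 8.03 and 7.88 in repetition 1, 7.88 and 7.74 in repetition 2 and 8.20 and 7.99 in repetition 3, CD133+ first. It was lowest in repetition 2 and highest in repetition 3, at -0.28 for repetition 2 minus repetition 3 (adjusted p = 0.176), and it was higher in CD133+ cells in each repetition by 0.17 on average. PSME2 measured 7.48, 7.62 and 7.41 in CD133+ and 7.44, 7.40 and 7.21 in CD133- repetitions 1, 2 and 3, with a fraction difference of 0.15 and 0.20 between repetitions 2 and 3. Neither passed in either comparison. The fraction differences of PSME3 and PSME4 were 0.15 and -0.076.

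Of the inducible catalytic genes, PSMB9 had the largest fraction difference. It measured 6.72, 6.51 and 6.89 in CD133+ and 6.24, 5.91 and 6.12 in CD133- repetitions 1, 2 and 3, so the fractions did not overlap. The difference of 0.61 (SE 0.14) did not pass (limma adjusted p = 0.758, 0.0788 with the block). PSMB10 had a difference of 0.21 and PSMB8, with a dim signal of 3.56 to 3.80, had -0.044. Like PSME1, PSMB9 had its lowest mean in repetition 2 and its highest in repetition 3 (adjusted p of the F test = 0.173). Its means in repetitions 1 and 3 were close, at 6.48 and 6.50. The means of PSMB10 in repetitions 1, 2 and 3 were 6.29, 6.68 and 6.66, highest in repetition 2. Those of the dim PSMB8 were 3.67, 3.63 and 3.80.

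**Figure D4:**
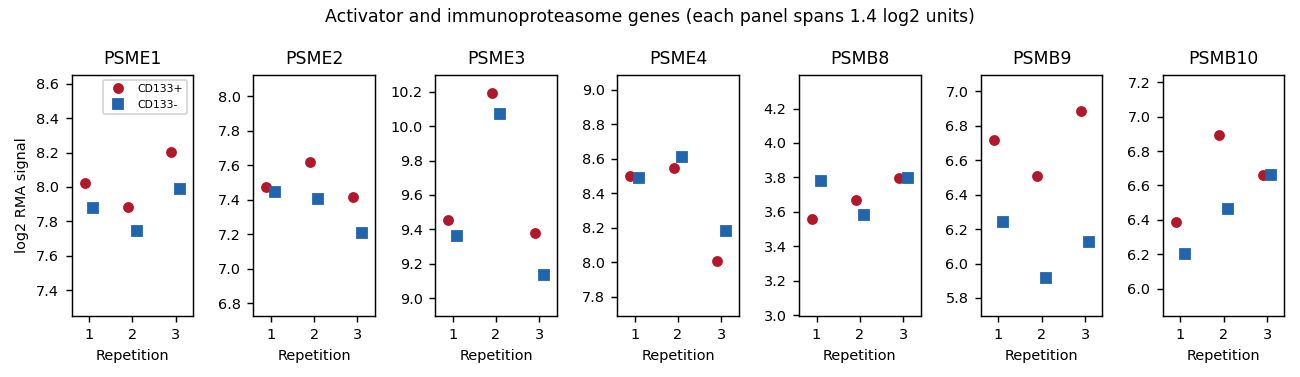
Signal of the 4 activator genes and the 3 inducible catalytic genes (log2, vertical axis, panels of equal span) by repetition, circles for CD133+ and squares for CD133-. PSME3 is high in repetition 2, PSME1 is lowest there, and the PSMB9 circles lie above its squares in each repetition.

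Proteasome partners without a PSM name were described by the same counts. Of 16 measured, 15 were higher in repetition 2 than in repetition 3, against 44.6% of all genes and 74.0% of those with a mean above 8. The F test passed for 5 of the 16 (31.2%), near the 27.9% of genes with a mean above 8. Of the 936 called genes with a mean above 8, 612 were highest in repetition 2 and lowest in repetition 3. So were all 5 called partners. They were the deubiquitinases USP14 at 0.74 and UCHL5 at 0.68, the core assembly factor POMP at 0.62, the ubiquitin receptor ADRM1 at 0.52 and the shuttle factor RAD23B at 0.49. Between the fractions 8 had a higher and 8 a lower mean, and 0 passed. The shuttle factor UBQLN1 had -0.37 and UCHL5 had 0.31, each with 1 sign in all repetitions. Of 10 measured genes that control proteasome transcription, 3 passed the F test, a share also near that 27.9%, and 1 of the 3, NFYB, had the order of the proteasome genes. They were NFE2L2 and the CCAAT-binding NFYB, both highest in repetition 2, and NGLY1, the glycanase that processes NFE2L1, which was higher in repetition 1 than in repetitions 2 and 3 by 0.68 and 0.74. NFE2L1 itself had 0.36 for repetition 2 minus repetition 3 (adjusted p = 0.0836) and 0.032 between the fractions, and NFYA had a fraction difference of 0.21 and MAFG of -0.17, neither called. Genes of ubiquitin, its activation and the VCP segregase passed in 1 of 8 cases, against that 27.9%, which was the VCP cofactor UFD1 at 0.51. Between the fractions 8 of 8 were below 0, from -0.15 for NPLOC4 to -0.0013 for FAF2, with 0 called. Of all 18404 genes 9587 were below 0, and of the 3355 with a mean above 8, 1451 were. FAF2 measured 12.78 to 12.98, and whether its probe set measures that gene was not checked.

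The COP9 signalosome, a complex built much like the lid, had all 9 of its genes higher in repetition 2 than in repetition 3. Of genes with a mean above 8, 74.0% were also higher there. The median was 0.51 and 4 of 9 passed (44.4%, against 15.3% of all genes and 27.9% of those with a mean above 8), namely COPS3 at 0.75, COPS8 at 0.69, COPS7A at 0.59 and COPS4 at 0.54. The replication genes MCM2 to MCM7 and PCNA, chosen after the data were seen, had a median of 0.79 with 7 of 7 passing. All 7 replication genes and 50.1% of the genes with a mean above 8 were highest in repetition 2 and lowest in repetition 3, and their part in the result was not tested.

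**Figure D5:**
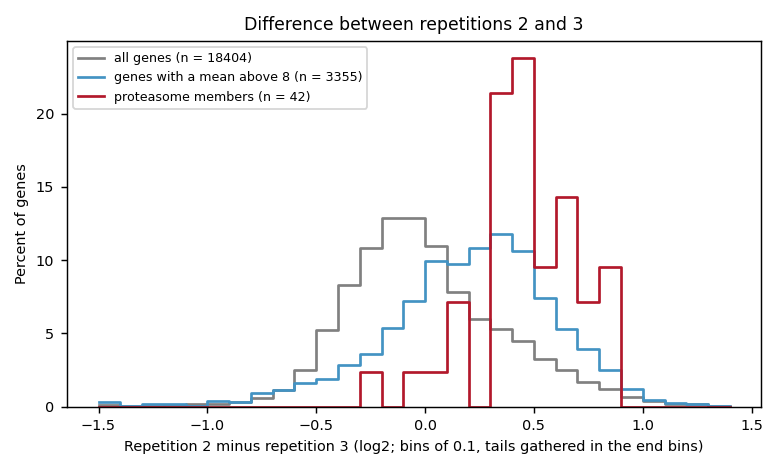
Percent of genes by difference between repetitions 2 and 3 (log2, bins of 0.1) for all 18404 genes, the 3355 genes with a mean above 8 and the 42 proteasome genes. The proteasome genes peak between 0.4 and 0.5, the genes with a mean above 8 have a median of 0.24, and all genes have a median of -0.043.

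Promoters were read for the members because they moved together over the repetitions. RefSeq promoter windows (GRCh38.p14) were matched for 36 of the 42 genes, 43 windows in all, and the 250 bases before each start were searched on both strands. CGGAAG, the core bound by ETS factors, was in 22 of 43 windows (51.2%), against 16.5% of all 35116 windows. TGACNNNGC, the core of the antioxidant response element bound by NFE2L1 and NFE2L2, was in 11 of 43 (25.6%), against 10.9%. CCAAT, which the NFY factors bind, was in 16 of 43 (37.2%), against 32.0%. These shares were not tested, and a match is not a bound site. The sequences show the upstream bases of genes called over the repetitions with the widest spans, and of PSME1, which ran the other way; capitals mark matches to the 3 motifs on either strand.
PSME3, chr17:42833227-42833396, plus strand, with CCAAT reversed close to the start: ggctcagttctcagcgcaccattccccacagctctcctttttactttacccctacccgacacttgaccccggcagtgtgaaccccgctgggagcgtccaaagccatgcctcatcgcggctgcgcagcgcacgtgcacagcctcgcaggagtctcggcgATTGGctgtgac
PSMD1, chr2:231056697-231056866, plus strand, with CGGAAG reversed: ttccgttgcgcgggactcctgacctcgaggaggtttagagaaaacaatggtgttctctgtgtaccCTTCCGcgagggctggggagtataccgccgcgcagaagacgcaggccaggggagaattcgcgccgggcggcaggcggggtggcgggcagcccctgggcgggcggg
PSMD12, chr17:67366578-67366762, minus strand, with TGACNNNGC and CGGAAG reversed: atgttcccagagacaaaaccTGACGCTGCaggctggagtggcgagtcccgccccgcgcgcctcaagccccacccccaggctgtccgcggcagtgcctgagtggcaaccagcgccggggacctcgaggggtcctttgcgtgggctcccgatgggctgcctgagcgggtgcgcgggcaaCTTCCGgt
PSMD6, chr3:64023495-64023706, minus strand, with CCAAT reversed and CGGAAG: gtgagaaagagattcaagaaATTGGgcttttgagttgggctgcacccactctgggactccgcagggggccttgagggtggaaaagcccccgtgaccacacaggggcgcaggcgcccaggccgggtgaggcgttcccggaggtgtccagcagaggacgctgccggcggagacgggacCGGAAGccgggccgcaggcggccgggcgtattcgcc
PSMD14, chr2:161308255-161308424, plus strand, with CCAAT overlapping its reverse and CGGAAG: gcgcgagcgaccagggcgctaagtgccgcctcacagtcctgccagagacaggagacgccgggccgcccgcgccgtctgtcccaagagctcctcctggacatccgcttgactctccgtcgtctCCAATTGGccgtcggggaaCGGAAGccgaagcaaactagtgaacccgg
PSME1, chr14:24136024-24136193, plus strand, with TGACNNNGC: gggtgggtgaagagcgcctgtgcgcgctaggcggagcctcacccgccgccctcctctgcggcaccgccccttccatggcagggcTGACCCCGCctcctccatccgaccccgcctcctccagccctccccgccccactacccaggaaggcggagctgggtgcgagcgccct
Over all 36 genes with a window, CGGAAG was found in 10 of the 18 genes called over the repetitions and in 10 of the 18 not called. TGACNNNGC was found in 5 and 6 of them, and CCAAT in 10 and 6.

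The pair matched by letters alone is given for completeness. PSMC3IP, a protein of meiotic recombination, had a fraction difference of 0.011 and 1.05 for repetition 2 minus repetition 3 (limma adjusted p = 0.0247). PSME3IP1, a partner of the PSME3 protein, had 0.13 and 0.57 and passed in neither comparison.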

How the data were processed

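The authors' deposited table holds log2 signals of 6 arrays, made with Robust Multichip Average (RMA), per the labels' design text; no software version is stated there. That text speaks of U133 chips, but the identifiers are those of a Gene ST design that probes whole transcripts, and its annotation was used. Values ran from 1.09 to 13.7. Of 32321 rows, the 4091 before the first annotated row were left out, and 28230 probe sets were tested. They comprised 19158 with 1 symbol, 1388 with several and 7684 with none. The number of arrays limits the precision.

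Fits used limma 3.58.1 in R 4.3.3 (lmFit, eBayes) with Benjamini-Hochberg adjustment over the tested probe sets at 0.05. The fraction was the only term, with repetition as a block beside it. A moderated F test of repetition used both terms. An exact permutation of 3 arrays against 3 cannot go below p = 0.1. Arrays with the same number deviated together from their fraction means, with correlations of 0.447 to 0.616 over probe sets, above 0.1 in all 3 pairs, so the numbers paired the arrays by the data, not by the labels. The fits were also run on simulated data with added changes, independent noise and no other difference between repetitions. That run cannot show how the fits perform on arrays paired like these. Members, lists and tests were chosen with earlier results of these data known, and the replication genes and the set of genes with a mean above 8 were added after these values were seen.

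Named genes were those with the smallest p or largest difference in each role, the catalytic, tissue-restricted and activator genes, and the genes of each list with the smallest p; others were named after their values were seen. Alternatives were other normalizations, filters, terms and left-out arrays.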

Additional observations from a re-analysis of the deposited data

How the results depend on the processing

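Between the fractions, 0 proteasome genes were called in each of the 16 alternatives. Over all probe sets 1 was called, against 84 with the replicate block and 0 when arrays were quantile normalized again, when they were centred on their medians and with the leading rows kept; leaving out 1 array gave 0 to 2, and leaving out 1 repetition with the block gave 0 to 43. The block changed no call of a proteasome gene, and it changed that of PROM1. Leaving out 1 array, the median difference of the members ran from -0.090 to 0.16 and the number above 0 from 7 to 37. With the block and 1 repetition left out, the median ran from 0.0089 to 0.056 and the number from 26 to 30. Single fraction differences, none called, changed sign when 1 array was left out, with ranges of -0.081 to 0.021 for PSMA8, -0.12 to 0.13 for PSMB7, -0.11 to 0.014 for PSMB8, -0.22 to 0.23 for PSMD6, -0.084 to 0.12 for PSMF1, -0.041 to 0.25 for PSMB2, -0.041 to 0.25 for PSMB5, -0.17 to 0.16 for PSMB6, -0.11 to 0.24 for PSMC6, -0.17 to 0.28 for PSMD12, -0.10 to 0.34 for PSMD14, -0.033 to 0.32 for PSMD5, -0.11 to 0.43 for PSME3, -0.34 to 0.15 for PSMD1, -0.20 to 0.12 for PSMD11, -0.20 to 0.10 for PSME4, -0.042 to 0.40 for PSMA3, -0.10 to 0.27 for PSMD2, -0.0063 to 0.50 for PSMG1. With the block and 1 repetition left out the ranges were -0.089 to 0.031 for PSMA8, -0.11 to 0.044 for PSMB8, -0.0073 to 0.065 for PSMD6, -0.0058 to 0.0095 for PSMB7, -0.48 to 0.018 for PSMB11, -0.080 to 0.10 for PSMB6. PSMD6 had -0.0049 with the block and without repetition 1, and PSMB7 had -0.035 after repeated quantile normalization.

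Among repetitions, 18 members and 3680 probe sets were called. The members called were 7 after repeated quantile normalization, 35 after centring, 36 above the median signal, 0 with the leading rows kept, 36 with a variance trend and 0 to 12 with 1 array left out. Probe sets called were 2061 with no term for the fraction, 6791 above the median signal, 69 with the leading rows kept, 6048 with a trend and 63 to 2351 with 1 array left out. The members' median against the other repetitions was 0.25 and -0.26 in repetitions 2 and 3 after repeated quantile normalization, and 0.48 and -0.48 after centring, which moved the median of all genes to 0.086 and -0.074; with 1 array left out it ran from 0.32 to 0.39 in repetition 2 and from -0.40 to -0.29 in repetition 3. The members highest in repetition 2 and lowest in 3 numbered 36, 30 and 38 as deposited, quantile normalized and centred. Repetition 2 minus repetition 3 changed sign for the dim PSMB11 (0.051 after quantile normalization, 0.067 after centring, -0.44 to 0.28 with 1 array left out) and PSMA8 (-0.053 to 0.11 with 1 array left out). The cause of these changes was not tested. A repetition left with 1 array was assumed to vary like the others.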
